A study of Mus musculus with 9 samples.

Results

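The 31 genes described here carry fatty acids into cardiac muscle cells and through mitochondrial beta-oxidation. They were taken as a named list of symbols from the table of read counts, which holds 23457 genes, and all 31 were among the 12640 genes expressed well enough to test. The hearts came from 4 adult mice labelled as germline Parkin knockouts (KO) and from 5 adult wild-type mice (WT), all on the C57BL/6J background. The germline deletion is present in every cell and throughout development, so it is not specific to cardiac muscle. RNA was prepared from the frozen ventricular apex, although the tissue is labelled as the whole heart. Polyadenylated RNA was sequenced from 1 end in libraries that do not keep the strand. In the study these hearts accompanied work on flies, and the question is how the cardiac transcriptome of the KO mice differs from that of WT mice. The sources used here do not say whether the animals were littermates, so a difference between litters cannot be told apart from genotype. The p-values of genes set the difference between KO and WT against the spread among hearts within each group, for these 9 hearts.

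The working heart draws most of its energy from long-chain fatty acids. Lipoprotein lipase frees them from circulating triglyceride, membrane proteins and a cytosolic binding protein take them up, and an acyl-CoA synthetase activates them. The carnitine system moves the acyl group into mitochondria under the control of malonyl-CoA, and a set of dehydrogenases, hydratases and thiolases then shortens the chain in repeated cycles. The dehydrogenases hand their electrons through electron transfer flavoprotein and its oxidoreductase to ubiquinone of the respiratory chain. Parkin is a ubiquitin ligase known for marking damaged mitochondria for removal.

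Relative to WT hearts, 9 of the 31 genes were higher in KO hearts, 9 were lower and 13 did not pass the test (edgeR quasi-likelihood test, adjusted p under 0.05). Of all 12640 genes tested, 26.2% were called higher and 25.2% lower. The 18 of 31 genes called in the list stand beside 51.4% of all genes called in either direction. Both counts of the list are therefore near the share of genes at large. Without KO heart 3, or without KO heart 4, 5 genes were called lower. The median log2 fold change was 0.002 over the 31 genes and -0.006 over all tested genes. The median size of the change, whatever its sign, was 0.39 on the log2 scale for the list and 0.51 for all tested genes. In 8 genes all KO hearts lay above all WT hearts and in 7 all KO hearts lay below, beside 22.3% and 19.3% of all tested genes. The genes that rose were Etfb, Acads, Cpt1b, Acadvl, Mlycd, Acacb, Echs1, Acaa2 and Slc27a1. The genes that fell were Acot2, Cd36, Decr1, Ucp3, Acsl1, Hadh, Lpl, Hadhb and Acadl. Each role except malonyl-CoA control held at least 1 gene that fell or did not pass, as the plot of all 31 genes by heart shows.

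**Figure D1:**
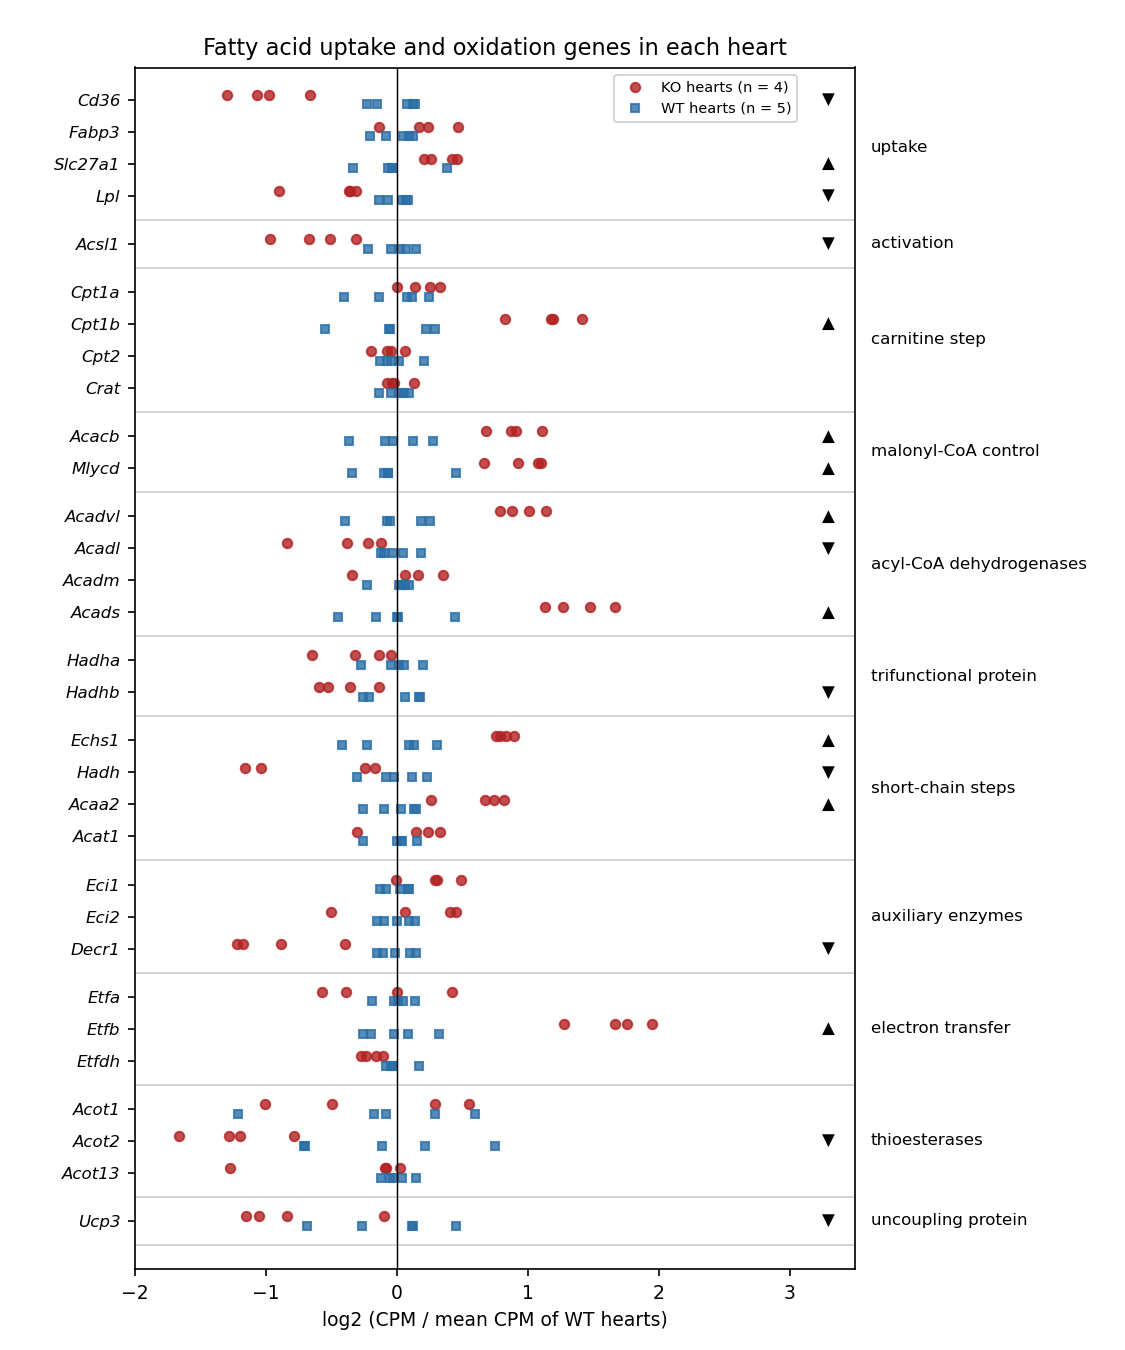
Each point is 1 heart, KO circles and WT squares, at the log2 ratio of its normalised read count (CPM, counts scaled to a common depth) to the mean of the 5 WT hearts, with genes grouped by role. Triangles mark the 9 genes called higher (pointing up) and the 9 called lower (pointing down) in KO hearts; the points of Etfb and Acads lie farthest to the right and those of Acot2 farthest to the left.

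The changes followed base composition. The GC content of the longest coding transcript ranged over 50.55 to 61.0% in the 9 genes that rose and over 38.39 to 53.69% in the 9 that fell. Across the 31 genes the fold change and GC content had a Spearman rho of 0.70, and across all tested genes with a known transcript it was 0.61. Genes share the same libraries and are not replicates, so these values describe the tables only. The central 150 coding bases of a pair of genes that rose (Etfb and Acads) and of a pair that fell (Cd36 and Decr1) are printed below, 5′ to 3′ on the coding strand, as examples of this range. They were picked for their contrast in GC content, and other genes go the other way: the coding sequence of Acot2, which fell most, has 62.2% GC and that of Echs1, which rose, 51.3%. G and C are in capitals, and they make up 56.0% of the Etfb stretch, 58.0% of Acads, 38.0% of Cd36 and 46.7% of Decr1. The stretches start at coding base 307 of Etfb, 544 of Acads, 634 of Cd36 and 427 of Decr1. The sequences are from GENCODE vM21 on GRCm38, where Etfb lies on the plus strand at chr7:43444083-43457800, Acads on the minus strand at chr5:115110299-115119346, Cd36 on the minus strand at chr5:17781690-17888801 and Decr1 on the minus strand at chr4:15917240-15945507.
Etfb: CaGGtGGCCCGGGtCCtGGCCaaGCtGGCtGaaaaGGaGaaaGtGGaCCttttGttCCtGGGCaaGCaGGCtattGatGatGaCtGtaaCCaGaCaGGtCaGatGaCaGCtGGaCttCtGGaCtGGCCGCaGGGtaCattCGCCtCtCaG
Acads: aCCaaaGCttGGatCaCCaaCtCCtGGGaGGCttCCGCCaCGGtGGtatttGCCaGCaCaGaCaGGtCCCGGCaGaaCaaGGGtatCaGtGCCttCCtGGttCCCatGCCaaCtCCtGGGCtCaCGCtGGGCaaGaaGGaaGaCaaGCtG
Cd36: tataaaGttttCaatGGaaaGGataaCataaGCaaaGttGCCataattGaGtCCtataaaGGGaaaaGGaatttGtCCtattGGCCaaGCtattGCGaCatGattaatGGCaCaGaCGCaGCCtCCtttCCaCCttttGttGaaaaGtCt
Decr1: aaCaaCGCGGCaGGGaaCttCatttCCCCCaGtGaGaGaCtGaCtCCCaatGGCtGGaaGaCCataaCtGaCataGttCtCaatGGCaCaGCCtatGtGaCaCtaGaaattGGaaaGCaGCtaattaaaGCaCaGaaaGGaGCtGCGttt

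The slope of each heart's values against GC content separated the groups, at 0.17 to 0.65 log2 units per 10 percentage points in KO hearts and -0.40 to -0.19 in WT hearts (exact permutation p = 0.00794 over 126 splits, two-sided, the smallest they can give). For this reason results were also computed in a second fit, in which each heart's trend against GC content and transcript length was removed before the same edgeR test. Biology that happens to track base composition or length is removed along with a library property, and these cannot be told apart. In it 8 of the 31 genes were higher and 6 lower, beside 18.6% and 19.5% of all genes tested. Of the 18 genes called in the first fit, 12 were called in the same direction and 0 in the opposite one. Across the 31 genes the Spearman rho with GC content was then 0.17, against 0.01 over all genes.

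**Figure D2:**
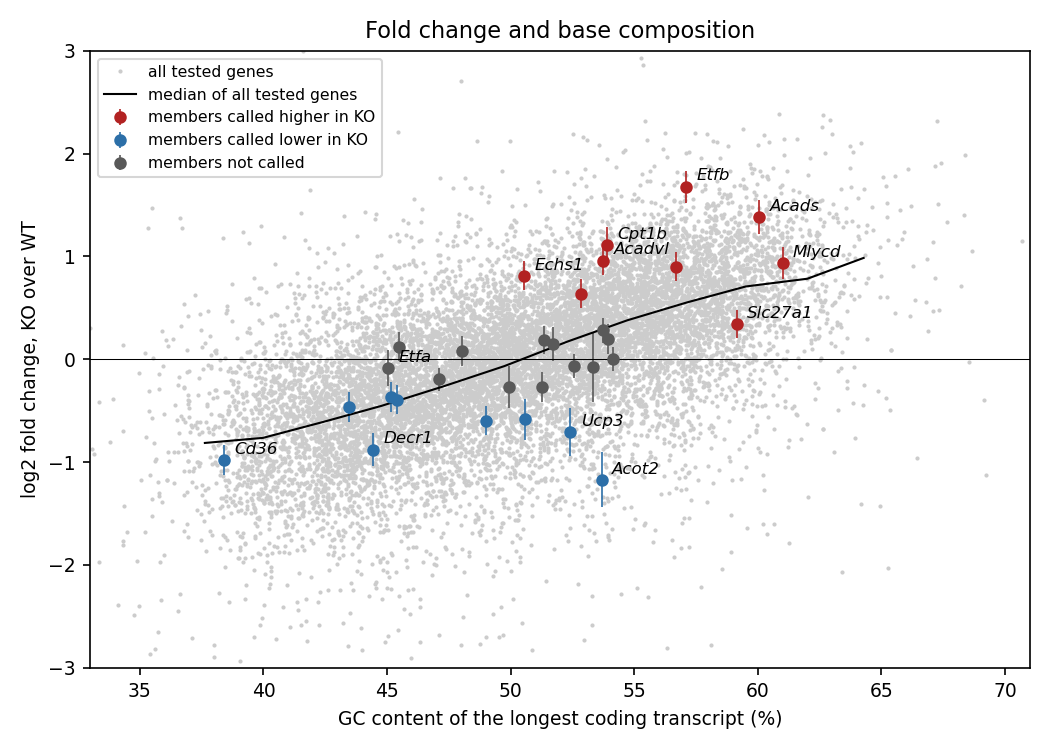
Each point is 1 gene, with its GC content (%) on the x axis and its log2 fold change, KO over WT, on the y axis; grey points are all tested genes, the black line is their median, and bars on the listed genes are standard errors. Etfb, Echs1 and Acadvl lie above the line at their GC content, Acot2, Ucp3 and Decr1 lie below it, and Cd36 and Mlycd lie close to it.

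**Figure D3:**
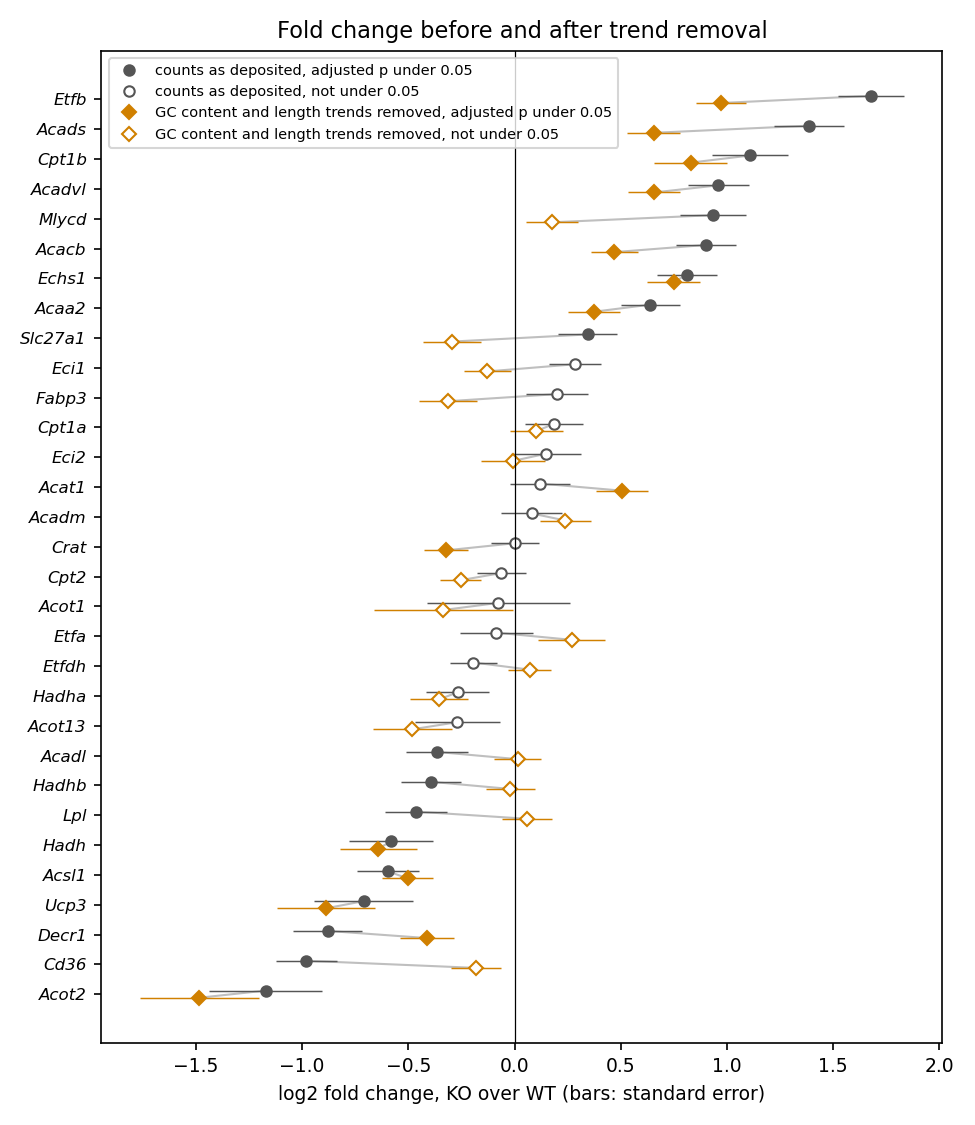
Log2 fold change, KO over WT, with its standard error for the 31 genes before (circles) and after (diamonds) trends against GC content and transcript length were removed; filled symbols have an adjusted p under 0.05 by edgeR. Etfb, Acads, Cpt1b, Acadvl, Echs1, Acacb and Acaa2 stay to the right of 0 and filled in both fits, and Acot2, Ucp3, Decr1, Hadh and Acsl1 stay to the left of 0 and filled in both.

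The libraries differed in ways that move with the genotype label. Assigned reads per heart numbered 11637206 to 15777844 in KO and 4415183 to 20827699 in WT, with WT hearts 2 and 3 the shallowest. Mitochondrially encoded transcripts took 10.04 to 15.4% of reads in KO hearts and 32.62 to 58.2% in WT hearts. The 31 genes took 1.98 to 2.63% of the nuclear reads in KO hearts and 2.46 to 2.56% in WT hearts, so the groups overlapped. All 12 cardiac muscle markers were expressed, with a summed level of 96760 to 106600 CPM in KO hearts and 71150 to 79130 CPM in WT hearts. Of these, 6 were higher and 1 lower in the first fit, and 3 higher and 2 lower with trends removed. Myh6, named after its values were seen, was the largest part of the sum, at a mean of 41900 CPM in KO and 28590 CPM in WT hearts. Its log2 fold change was 0.55 ± 0.14 (edgeR adjusted p = 0.0052), and 0.12 with trends removed (adjusted p = 0.487). The summed endothelial markers spanned 727 to 879 CPM in KO and 771 to 945 CPM in WT hearts, with 4 of 9 higher and 2 lower, and 2 higher and 1 lower with trends removed. Skeletal muscle markers summed to 1461 to 2025 CPM in KO and 679.8 to 1167 CPM in WT hearts, and nearly all of that sum was Ckm, which the heart also expresses. Of the 4 tested 3 were higher in both fits. Among them Myh2, a fast skeletal myosin, had 18.0, 7.59, 11.2 and 20.6 CPM in KO hearts 1 to 4, against 0.224, 0, 2.37, 0.211 and 3.37 CPM in WT hearts 1 to 5 (log2 fold change 3.82 ± 0.59, edgeR adjusted p = 0.00013, and 0.0004 with trends removed). Myh4, another fast myosin, had 0.859 to 2.33 CPM in KO hearts and 0.211 to 0.694 CPM in WT hearts (1.76 ± 0.43, edgeR adjusted p = 0.0031; 1.61 with trends removed), and the groups did not overlap for either myosin. Both myosins were named after their values were seen, and the rest of that list other than Ckm did not follow them. Tnni2, a fast troponin, was tested and not called (0.40 ± 0.37, edgeR adjusted p = 0.370, and -0.24 with trends removed). Myh1, Tnnt3, Actn3 and Mylpf were too low to test, and the groups of each overlapped. Fat cell markers summed to 1.02 to 6.01 CPM in KO and 0.580 to 4.16 CPM in WT hearts. None of the 9 reached the level needed for the test. In bulk tissue, fewer cells of a type and less RNA per cell cannot be told apart, and the part of these library differences in the results below was not tested.

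Levels can be compared between genes only per length, for which the authors' deposited FPKM (fragment counts scaled to transcript length and depth) were used. In KO hearts Fabp3 led at 12430 ± 1891 FPKM (SD, n = 4), followed by Etfb at 1068 ± 149 and Lpl at 767 ± 162. In WT hearts Fabp3 led at 7239 ± 1107 FPKM (SD, n = 5), followed by Lpl at 707 ± 109, Acadm at 319 ± 77.5 and Hadha at 312 ± 77.8. Etfb stood seventh in that order of WT levels, at 234 ± 88.2 FPKM, within the spread of its neighbours Acadl (238 ± 51.0) and Hadhb (225 ± 75.5). Cpt1a was the lowest of the 31 in both groups, at 14.4 ± 1.75 FPKM in KO hearts and 8.59 ± 2.57 FPKM in WT hearts. The coefficient of variation of normalised counts ran from 4.41% (Echs1) to 46.1% (Acot1) among KO hearts, with a median of 17.5%. Among WT hearts it ran from 6.13% (Crat) to 44.6% (Acot2), with a median of 11.5%.

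Of the 4 uptake genes, Cd36 and Lpl fell, Slc27a1 rose and Fabp3 did not pass. Cd36, the fatty acid translocase of the plasma membrane, had 219, 175, 165 and 141 CPM in KO hearts 1 to 4, against 365, 380.2, 377, 296 and 311 CPM in WT hearts 1 to 5. Every KO heart lay below every WT heart, and WT hearts were 1.97-fold higher. Cd36 has the lowest GC content of the list, and with trends removed its log2 fold change of -0.98 ± 0.14 became -0.18 ± 0.12 (edgeR adjusted p = 0.242). Lpl, the lipase that splits circulating triglyceride at the vessel wall, had 2669, 2575, 2586 and 1776 CPM in KO hearts, against 3160, 3472, 3515, 3008 and 3409 CPM in WT hearts. KO heart 4 was far below the other 3, but all 4 lay below the lowest WT heart (log2 fold change -0.46 ± 0.15, edgeR adjusted p = 0.0149). With trends removed the sign of Lpl turned (0.06, adjusted p = 0.721). Slc27a1, the transport protein FATP1, had 126, 145, 121 and 140.4 CPM in KO hearts, against 100.5, 137.0, 83.2, 102 and 102 CPM in WT hearts. WT heart 2 stood among the KO hearts, so the groups overlapped (0.34 ± 0.14, edgeR adjusted p = 0.047). The Slc27a1 call was lost when any of 7 of the 9 hearts was left out, and its sign turned with trends removed (-0.30, adjusted p = 0.105). Fabp3, the heart-type binding protein that carries fatty acids through the cytosol, had 3543, 5380, 4605 and 4395 CPM in KO hearts, against 3684, 4022, 4149, 3382 and 4256 CPM in WT hearts. KO heart 1 lay among the WT hearts and the other 3 above them (0.20 ± 0.15, edgeR adjusted p = 0.263; -0.31 ± 0.14 with trends removed, adjusted p = 0.084).

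Acsl1, the main cardiac enzyme that activates long-chain fatty acids to acyl-CoA, was the only activation gene in the list and it fell. It had 740.4, 644, 575 and 468 CPM in KO hearts 1 to 4, against 963, 889.7, 788, 1013 and 931 CPM in WT hearts 1 to 5. The groups did not overlap, and WT hearts were 1.51-fold higher (log2 fold change -0.60 ± 0.14, edgeR adjusted p = 0.0031). The fall of Acsl1 was of similar size with trends removed (-0.50 ± 0.12, adjusted p = 0.005), and it passed in each of the 9 fits that left out 1 heart.

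At the carnitine step Cpt1b rose, and Cpt1a, Cpt2 and Crat did not pass. Cpt1b is the muscle form of carnitine palmitoyltransferase 1, which commits acyl groups to mitochondrial import. It had 14.8, 14.7, 17.3 and 11.5 CPM in KO hearts 1 to 4, against 7.94, 6.24, 4.44, 7.59 and 6.27 CPM in WT hearts 1 to 5. The groups did not overlap (log2 fold change 1.11 ± 0.18, edgeR adjusted p = 0.00016; 0.83 ± 0.17 with trends removed, adjusted p = 0.0018). These counts are low for the gene: 15 to 343 reads per heart, and 18 and 15 in WT hearts 2 and 3. Its deposited FPKM were 333, 332, 305 and 283 in KO hearts, against 230.3, 117, 113, 219 and 165 in WT hearts. Set against the assigned reads scaled to depth and transcript length, the FPKM of Cpt1b were larger by a median factor of 78.5, where the same factor was 0.976 to 1.83 for 29 other genes and 9.66 for Acot1. Cpt1b lies on the minus strand at chr15:89416405-89425863 (GRCm38), and 2744 of its 3372 exon bases also belong to Gm44502, an annotated gene on the same strand. Of all runs of 50 bases in its transcript, 93.0% occur in a Gm44502 transcript. How the counting treated reads of both genes is not stated in the labels.

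The tables therefore disagree on the balance of the CPT1 forms. By counts per length Cpt1b stood below Cpt1a, at 6.39 in KO and 1.95 in WT hearts beside 14.2 in KO and 8.38 in WT hearts for Cpt1a, in assigned reads scaled to depth and length. By FPKM Cpt1b stood above Cpt1a, with a ratio of 21.9 ± 1.94 in KO hearts (SD, n = 4) and 19.8 ± 3.01 in WT hearts (SD, n = 5). The change between genotypes was smaller in FPKM than in counts. Once each heart's FPKM were divided by the heart's median ratio to the mean heart, Cpt1b had a log2 fold change of 0.35 ± 0.12 (limma on log2(FPKM + 1), adjusted p = 0.035).

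**Figure D4:**
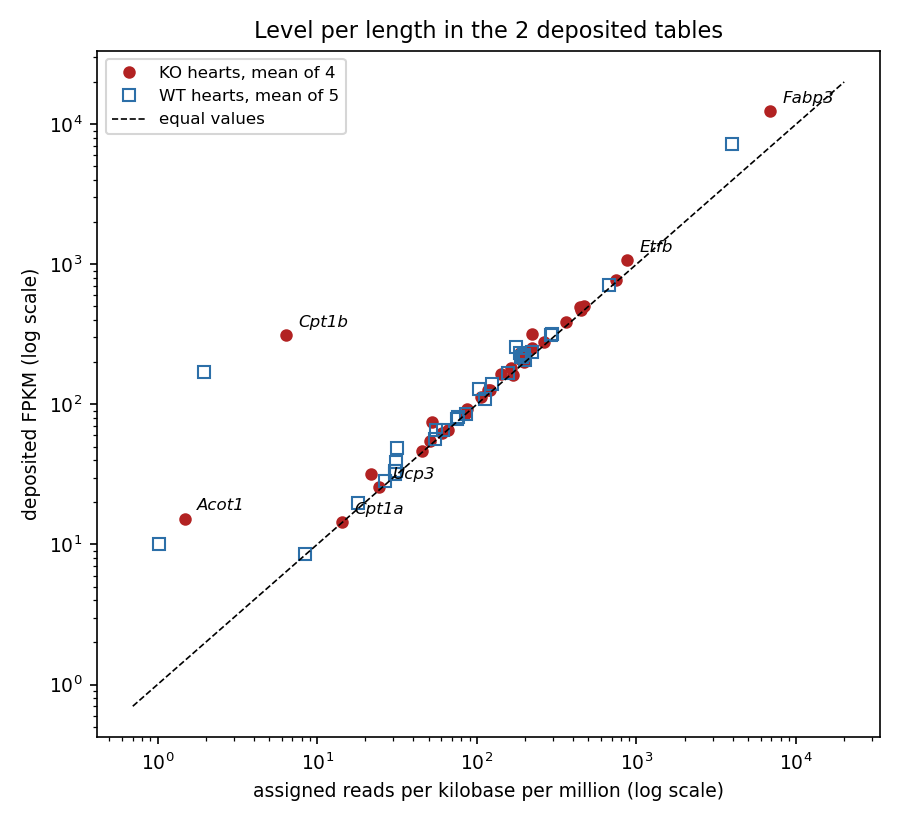
Each point is the mean of 1 gene in KO hearts (filled, n = 4) or WT hearts (open, n = 5), with assigned reads scaled to depth and transcript length on the x axis and deposited FPKM on the y axis, both on log scales. Cpt1b and Acot1 lie above the dashed line of equal values, while the other 29 genes follow it.

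Cpt1a, the form known from liver, had 42.6 to 53.7 CPM in KO hearts and 32.3 to 50.6 CPM in WT hearts (log2 fold change 0.18 ± 0.14, edgeR adjusted p = 0.271; 0.10 with trends removed, adjusted p = 0.551). Cpt2, which rebuilds acyl-CoA on the matrix side, had 148 to 177 CPM in KO hearts and 156 to 195 CPM in WT hearts (-0.06 ± 0.12, adjusted p = 0.669; -0.25 with trends removed, adjusted p = 0.053). Crat, which exchanges acetyl groups between CoA and carnitine, averaged 559.8 ± 36.8 CPM in KO hearts and 559 ± 34.2 CPM in WT hearts (SD, n = 4 and 5), the closest pair of means in the list. The groups of all 3 genes overlapped. With trends removed Crat was called lower (-0.32 ± 0.10, adjusted p = 0.0226), a call lost without KO heart 3, KO heart 4 or WT heart 5.

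Both genes of malonyl-CoA control rose, and their products act in opposite directions. Acacb, the acetyl-CoA carboxylase that makes the malonyl-CoA that inhibits CPT1, had 505, 593, 578 and 682 CPM in KO hearts 1 to 4, against 382, 309.7, 245, 297 and 344 CPM in WT hearts 1 to 5. Mlycd, the decarboxylase that removes malonyl-CoA, had 70.0, 94.7, 84.0 and 93.3 CPM in KO hearts, against 60.6, 41.3, 35.0, 42.1 and 42.1 CPM in WT hearts. In both genes every KO heart exceeded every WT heart. The log2 fold change was 0.90 ± 0.14 for Acacb (edgeR adjusted p = 0.00014) and 0.93 ± 0.15 for Mlycd (edgeR adjusted p = 0.00019). The ratio of Acacb to Mlycd counts was 6.92 ± 0.475 in KO hearts and 7.20 ± 0.684 in WT hearts (SD, n = 4 and 5), a difference smaller than the spread among hearts. With trends removed Acacb was still called higher (0.47 ± 0.11, adjusted p = 0.0048). Mlycd, which has the highest GC content of the list, had a value of 0.18 ± 0.12 there and missed the threshold (adjusted p = 0.275).

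The 4 acyl-CoA dehydrogenases take the first step of each cycle at different chain lengths, and they did not move together. Acadvl, the very long-chain enzyme of the inner membrane, had 726, 868, 794 and 679.8 CPM in KO hearts 1 to 4, against 447, 375, 299, 469.8 and 379 CPM in WT hearts 1 to 5. Acads, the short-chain enzyme, had 144, 183, 158 and 209 CPM in KO hearts, against 89.6, 59.0, 48.3, 66.4 and 65.7 CPM in WT hearts. Neither gene's groups overlapped, and both rose in each fit that left out 1 heart, with a log2 fold change of 0.86 to 1.02 for Acadvl and 1.28 to 1.52 for Acads. Acadl, the long-chain enzyme, had 467, 437, 391 and 284 CPM in KO hearts, against 468, 497, 474, 524 and 576 CPM in WT hearts. KO heart 1 stood just under the lowest WT heart, so the groups were separate only by a narrow margin (-0.36 ± 0.15, edgeR adjusted p = 0.048). The Acadl call was lost when any of 6 of the 9 hearts was left out, and with trends removed Acadl was at 0.01 (adjusted p = 0.936). Acadm, the medium-chain enzyme, had 568 to 922 CPM in KO hearts and 614 to 766 CPM in WT hearts (0.08 ± 0.14, adjusted p = 0.657; 0.24 with trends removed, adjusted p = 0.131).

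Within single hearts, the ratio of Acads to Acadl counts was 0.309, 0.419, 0.405 and 0.733 in KO hearts 1 to 4, against 0.192, 0.119, 0.102, 0.127 and 0.114 in WT hearts 1 to 5. The ratio of Acadvl to Acadl was 1.99 ± 0.342 in KO hearts and 0.779 ± 0.143 in WT hearts (SD, n = 4 and 5). The lowest KO heart exceeded the highest WT heart in both ratios. A ratio within a heart is free of the scaling of that heart but not of its GC trend. With trends removed Acads was at 0.65 ± 0.13 (edgeR adjusted p = 0.0012) and Acadvl at 0.66 ± 0.12 (adjusted p = 0.0010). Of the exon bases of Acadvl, 1151 overlap Dvl2 on the opposite strand, and reads there cannot be assigned to a strand.

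**Figure D5:**
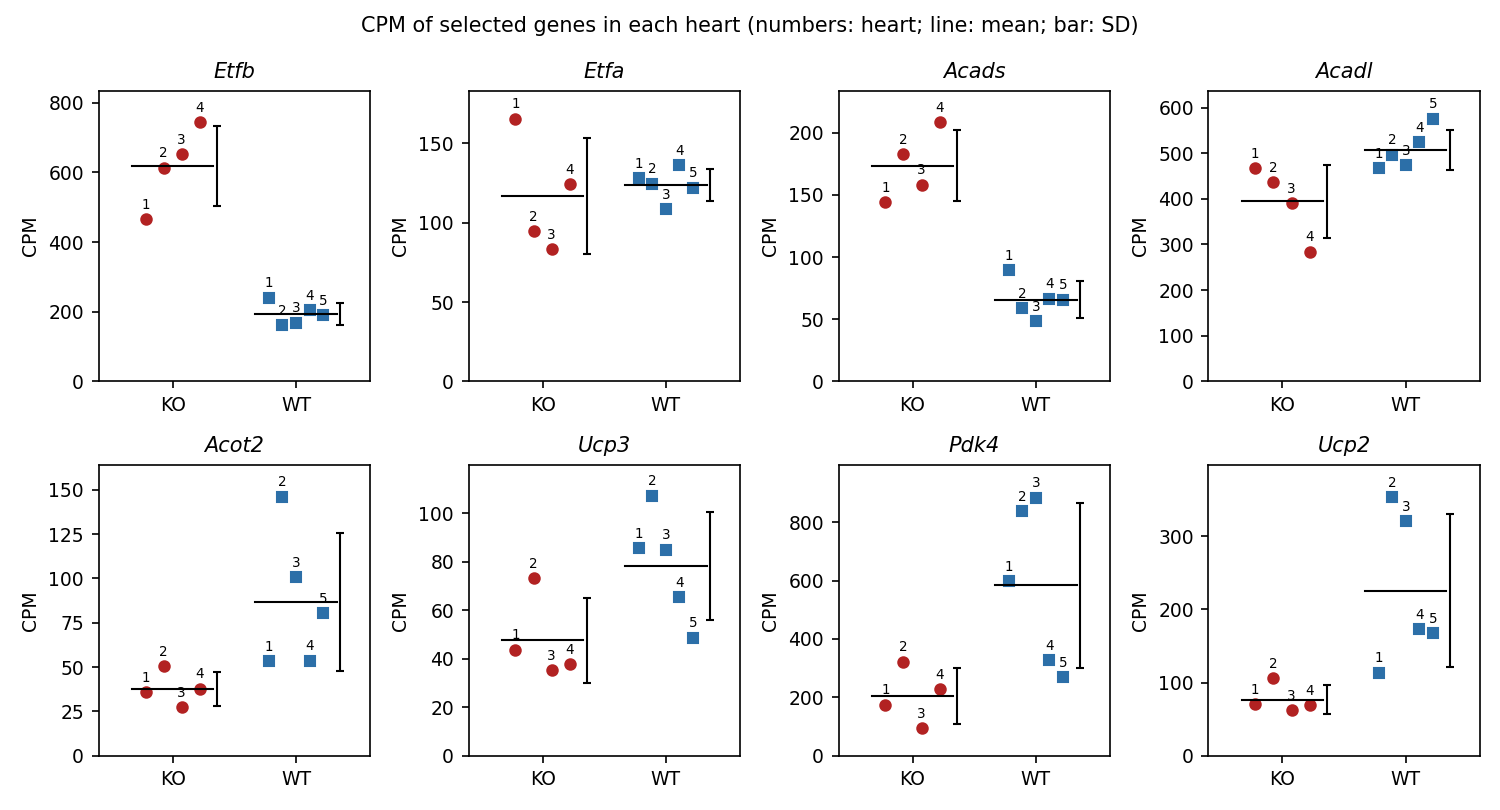
Normalised read counts (CPM) of 8 genes in each heart, KO on the left and WT on the right of each panel, with heart numbers above the points, a line at the mean and a bar for the SD (n = 4 KO and 5 WT). Etfb and Acads are higher in all 4 KO hearts, Etfa overlaps between groups, and WT hearts 2 and 3 hold the highest values of Acot2, Pdk4 and Ucp2.

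The mitochondrial trifunctional protein carries out the remaining 3 reactions on long chains, and its subunits differed little. Hadha, the alpha subunit with hydratase and dehydrogenase activity, had 882 to 1341 CPM in KO hearts and 1144 to 1588 CPM in WT hearts, and did not pass (log2 fold change -0.27 ± 0.15, edgeR adjusted p = 0.138; -0.36 with trends removed, adjusted p = 0.052). Hadhb, the beta subunit with thiolase activity, had 429, 367, 326 and 312 CPM in KO hearts 1 to 4, against 527, 492, 392, 533 and 406 CPM in WT hearts 1 to 5. KO heart 1 lay among the WT hearts, and Hadhb was called lower (-0.39 ± 0.14, edgeR adjusted p = 0.0297). That call was lost when any of 5 of the 9 hearts was left out and with trends removed (-0.02, adjusted p = 0.913). The ratio of Hadha to Hadhb was 3.20 ± 0.394 in KO hearts and 2.95 ± 0.296 in WT hearts (SD, n = 4 and 5), which overlap. Of the runs of 50 bases in the Hadhb transcript, 61.5% also occur in the annotated gene Gm13910, so its reads may be split. This was not tested. The median factor of its FPKM over scaled counts was 1.14, which reads lost alike from both would leave unchanged.

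Of the 4 enzymes that act on shorter chains, Echs1 and Acaa2 rose, Hadh fell and Acat1 did not pass. Echs1, the short-chain enoyl-CoA hydratase, had 178, 171, 186 and 168 CPM in KO hearts 1 to 4, against 123, 85.0, 74.3, 109 and 106 CPM in WT hearts 1 to 5. The KO hearts were the most alike of any gene in the list, and all lay above the WT hearts (log2 fold change 0.81 ± 0.14, edgeR adjusted p = 0.00029). The rise was nearly as large with trends removed (0.75 ± 0.13, adjusted p = 0.00044). Acaa2, the mitochondrial 3-ketoacyl-CoA thiolase, had 566, 597, 541 and 406 CPM in KO hearts, against 375, 347, 283, 371 and 317 CPM in WT hearts. Its groups did not overlap (0.64 ± 0.14, edgeR adjusted p = 0.0014; 0.37 ± 0.12 with trends removed, adjusted p = 0.026). With trends removed the Acaa2 call was lost when any of 5 of the 9 hearts was left out (KO hearts 1, 2 and 3 and WT hearts 3 and 5). Hadh, the short-chain 3-hydroxyacyl-CoA dehydrogenase, had 332, 350.2, 176 and 191 CPM in KO hearts, against 460.5, 386, 318, 426 and 369.7 CPM in WT hearts. KO hearts 3 and 4 were well below the rest and KO hearts 1 and 2 lay among the WT hearts. Hadh was called lower in both fits (-0.58 ± 0.20, edgeR adjusted p = 0.023; -0.64 ± 0.18 with trends removed, adjusted p = 0.013), but without KO heart 3 or KO heart 4 it no longer passed in the first fit, whereas in the second it passed whichever heart was left out. Acat1, the acetoacetyl-CoA thiolase that also serves ketone use, had 243 to 378 CPM in KO hearts and 251 to 335 CPM in WT hearts (0.12 ± 0.14, adjusted p = 0.491). It was called higher with trends removed (0.51 ± 0.12, adjusted p = 0.0051).

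The auxiliary enzymes deal with double bonds of unsaturated fatty acids, and only Decr1 of the 3 passed. Decr1, the 2,4-dienoyl-CoA reductase, had 147, 105, 83.0 and 85.5 CPM in KO hearts 1 to 4, against 174, 207, 179.5, 192 and 214 CPM in WT hearts 1 to 5. All KO hearts lay below all WT hearts, and WT hearts were 1.84-fold higher (log2 fold change -0.88 ± 0.16, edgeR adjusted p = 0.00046). With trends removed the fall was smaller and still passed (-0.41 ± 0.13, adjusted p = 0.0196), except without KO heart 3 or WT heart 5. The enoyl-CoA isomerase Eci1 had 138 to 194 CPM in KO hearts and 126 to 147 CPM in WT hearts (0.28 ± 0.12, adjusted p = 0.064; -0.13 with trends removed, adjusted p = 0.398). Its counterpart Eci2 had 45.7 to 88.5 CPM in KO hearts and 58.3 to 71.3 CPM in WT hearts (0.15 ± 0.17, adjusted p = 0.472; -0.01 with trends removed, adjusted p = 0.979).

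The subunits of electron transfer flavoprotein parted. Etfb, the beta subunit, had 466, 613, 651 and 744 CPM in KO hearts 1 to 4, against 240.4, 161, 168, 204 and 189.5 CPM in WT hearts 1 to 5. The lowest KO heart was far above the highest WT heart, and the 3.20-fold difference was the largest of the 31 genes in the first fit (edgeR adjusted p = 4.11e-06). Etfa, the alpha subunit that pairs with it, had 165, 94.5, 83.2 and 124 CPM in KO hearts, against 128, 125, 108, 136 and 122 CPM in WT hearts. KO hearts lay on both sides of the WT hearts, and Etfa did not pass (log2 fold change -0.09 ± 0.17, edgeR adjusted p = 0.694; 0.27 ± 0.16 with trends removed, adjusted p = 0.198). The ratio of Etfb to Etfa counts was 2.82, 6.49, 7.83 and 5.99 in KO hearts, against 1.88, 1.30, 1.55, 1.50 and 1.55 in WT hearts. WT hearts kept a narrow ratio (1.55 ± 0.209, SD, n = 5), whereas KO hearts varied (5.78 ± 2.12, SD, n = 4), with KO heart 1 closest to WT. The transcripts have 57.11% GC for Etfb and 45.04% for Etfa, so this ratio is not free of each heart's GC trend. With trends removed their log2 fold changes lay closer together, at 0.97 for Etfb and 0.27 for Etfa.

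With trends removed Etfb was at 0.97 ± 0.12 (edgeR adjusted p = 4.83e-05), and it passed in each fit that left out 1 heart. Of the runs of 50 bases in the Etfb transcript, 67.3% also occur in Gm45233, an annotated gene that shares its exons on the same strand. Reads of the pair may have been set aside or split, which was not tested. The FPKM of Etfb were larger than its scaled counts by a median factor of 1.25. Over the 29 genes other than Cpt1b and Acot1 this factor ran from 0.976 to 1.83, with a median of 1.07. Reads lost alike from counts and FPKM would leave the factor unchanged, so it cannot decide this. Etfdh, the oxidoreductase that passes the electrons to ubiquinone, had 328, 316, 291 and 299 CPM in KO hearts, against 345, 346, 332, 343 and 398 CPM in WT hearts. All KO hearts lay below all WT hearts, but the difference was small and did not pass (-0.19 ± 0.11, edgeR adjusted p = 0.159; 0.07 with trends removed, adjusted p = 0.618).

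Thioesterases release free fatty acids from acyl-CoA, and Acot2 alone of the 3 passed. Acot2, the mitochondrial long-chain enzyme, had 35.7, 50.3, 27.3 and 37.9 CPM in KO hearts 1 to 4, against 53.1, 146, 100.7, 53.5 and 80.3 CPM in WT hearts 1 to 5. WT hearts 2 and 3 were the highest, and KO heart 2 was close to the lowest WT hearts without overlap (log2 fold change -1.17 ± 0.27, edgeR adjusted p = 0.0020). The fall was larger with trends removed (-1.48 ± 0.28, adjusted p = 0.0011), where it was the largest change of the 31 genes. Acot1, its near-identical cytosolic neighbour on chromosome 12, had 1.37 to 4.04 CPM in KO hearts and 1.19 to 4.16 CPM in WT hearts, from 4 to 75 reads per heart (-0.08 ± 0.34, adjusted p = 0.866; -0.33 with trends removed, adjusted p = 0.450). Of the 50-base runs of Acot2, 24.5% also occur in Acot1, so reads of this pair are uncertain. Acot13, a small mitochondria-associated thioesterase, had 153, 142, 142 and 62.0 CPM in KO hearts, against 145, 138, 155, 147 and 166 CPM in WT hearts. KO heart 4 alone was low, and Acot13 did not pass (-0.27 ± 0.20, edgeR adjusted p = 0.272; -0.48 with trends removed, adjusted p = 0.053).

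Ucp3, the muscle uncoupling protein whose transcript is known to follow fatty acid supply, fell. It had 43.8, 73.2, 35.2 and 37.7 CPM in KO hearts 1 to 4, against 85.5, 107, 85.0, 65.3 and 48.6 CPM in WT hearts 1 to 5. KO heart 2 lay among the WT hearts, and WT heart 5 was near the other KO hearts (log2 fold change -0.71 ± 0.23, edgeR adjusted p = 0.0187). The value was -0.89 ± 0.23 with trends removed (adjusted p = 0.0078). Without KO heart 3, KO heart 4 or WT heart 2 the first fit no longer called it.

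The direction of these counts depends on scaling relative to the whole transcriptome, as the authors' FPKM show. In FPKM as deposited, 16 of the 31 genes were called higher and 0 lower by limma, with 0 lower at an unadjusted p under 0.05, beside 47.2% and 6.09% of all genes. In that table the median log2 fold change of all genes was 0.44. Once each heart was scaled to an equal median ratio, 8 genes were higher and 8 lower, beside 26.1% and 24.0% of all genes, and 9 were lower at an unadjusted p under 0.05. Cd36 was at -0.97 ± 0.14 (limma adjusted p = 0.00068) and Etfb at 1.66 ± 0.17 (limma adjusted p = 0.00022) on that scale.

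A wider list of 106 genes of the same pathway, its regulators and its neighbours gave 33 higher and 22 lower of the 97 tested, with a median log2 fold change of 0.07, beside 26.2% and 25.2% of all tested genes. With trends removed 26 were higher and 17 lower, beside 18.6% and 19.5%. The same background shares stand beside each count of a smaller group that follows, and groups of this size were not tested as such. Of the branched-chain and other acyl-CoA dehydrogenases 5 of 8 were higher and 0 lower in each fit, but not the same 5: Acad10 was called in the first fit only (0.68, and 0.27 with trends removed, edgeR adjusted p = 0.399), and Acadsb in the second only (-0.04, and 0.58 with trends removed, edgeR adjusted p = 0.0014). These 2 were named after their values were seen. Among them Ivd, the isovaleryl-CoA dehydrogenase of leucine breakdown, averaged 201 ± 29.5 CPM in KO hearts and 99.2 ± 20.1 CPM in WT hearts (SD, n = 4 and 5; log2 fold change 1.01 ± 0.15, edgeR adjusted p = 0.00011). Acad8, which acts on valine, was at 0.85 ± 0.18 (edgeR adjusted p = 0.0014) and at 1.28 with trends removed. Acad12 was at 0.82 ± 0.17 (edgeR adjusted p = 0.0013) and at 0.49 with trends removed, and Ivd was then at 0.95. These enzymes pass electrons to the same flavoprotein as the fatty acid dehydrogenases. Of 5 genes for flavin supply, 2 were higher in the first fit and 1 in the second, and 0 were lower. Flad1, the FAD synthase, averaged 55.5 ± 11.1 CPM in KO hearts and 27.9 ± 6.63 CPM in WT hearts (0.96 ± 0.17, edgeR adjusted p = 0.0004; 0.74 with trends removed). The riboflavin transporter Slc52a2 was at 0.63 ± 0.25 with overlapping groups (edgeR adjusted p = 0.044), and its call was lost with trends removed (0.37, adjusted p = 0.237).

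Other uptake and activation genes were mixed. Of 8 further uptake genes tested 3 were higher and 2 lower, and those higher were Slc27a4 (0.98 ± 0.16), the lipase anchor Gpihbp1 (0.68 ± 0.12) and Fabp5 (0.74 ± 0.15). All 3 had separate groups and were called higher with trends removed. Of 8 acyl-CoA synthetase genes 1 was higher and 3 lower. Acsf3, the malonyl-CoA synthetase of mitochondria, was at 1.20 ± 0.18, while Acsl4 was at -1.14 ± 0.23 and Acsf2 at -0.52 ± 0.17 (edgeR adjusted p = 0.022 or less for each). With trends removed Acsf3 was at 0.66 and Acsf2 at -0.86, both still called, while the call of Acsl4 was lost (-0.36, edgeR adjusted p = 0.202). Among 5 genes listed with the carnitine step 3 were higher and 1 lower. Slc25a29, a mitochondrial carrier for which nothing here shows transport of carnitine, was at 1.24 ± 0.19. Cpt1c was at 1.03 ± 0.23 and the peroxisomal transferase Crot at -0.77 ± 0.23. Slc22a5 was also higher, with separate groups (0.52 ± 0.19, edgeR adjusted p = 0.033), and was still called with trends removed (0.57, adjusted p = 0.020). The 1 not called was the carnitine carrier Slc25a20 (-0.25 ± 0.13, edgeR adjusted p = 0.113, and -0.27 with trends removed). Both Slc22a5 and Slc25a20 were named after their values were seen. With trends removed Slc25a29 was at 0.52 and still called, and Cpt1c (0.50, edgeR adjusted p = 0.077) and Crot (-0.29, edgeR adjusted p = 0.263) were not. Of 8 genes of malonyl-CoA synthesis and AMP-activated kinase, 1 was higher and 4 lower. Stk11, the upstream kinase LKB1, was at 1.13 ± 0.14 and at 0.44 with trends removed, where it still passed. The kinase subunits Prkag2 and Prkaa1 were at -0.68 ± 0.13 and -0.63 ± 0.17 (edgeR adjusted p = 0.0055 or less), and with trends removed Prkag2 was at -0.66 while the sign of Prkaa1 turned (0.10, adjusted p = 0.655).

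Of 11 peroxisomal genes 4 were higher and 4 lower. The thiolase Acaa1a averaged 29.3 ± 4.91 CPM in KO hearts and 8.97 ± 2.42 CPM in WT hearts (log2 fold change 1.67 ± 0.19, edgeR adjusted p = 1.44e-05). The racemase Amacr was at 0.92 ± 0.17, and Scp2, a carrier protein with thiolase activity, was at 0.71 ± 0.14. With trends removed Scp2 and Amacr were larger, at 1.15 and 1.04, and Acaa1a smaller, at 0.99. Among 7 other auxiliary genes 3 were higher and 0 lower, led by Ech1 with 1088 to 1441 CPM in KO hearts and 588 to 803 CPM in WT hearts (0.75 ± 0.13), which missed the threshold with trends removed (0.31, adjusted p = 0.057). Echdc2 (0.52 ± 0.17) turned sign with trends removed (-0.09), and Echdc3 was at 0.39 ± 0.15, a call lost with trends removed (0.30, adjusted p = 0.092). Among 4 genes that handle propionyl-CoA from odd chains, 1 was called, Pccb, at 0.31 ± 0.11. With trends removed Pccb no longer passed (0.22, edgeR adjusted p = 0.083), and Mcee, named after its values were seen, was called lower (-0.47, edgeR adjusted p = 0.0048). Oxct1, the enzyme that starts ketone use, was lower with overlapping groups (-0.45 ± 0.18, edgeR adjusted p = 0.048), and the call was lost with trends removed (-0.26, adjusted p = 0.197). Of 5 other thioesterases tested Acot7 (0.74 ± 0.13) and Acot8 (1.09 ± 0.23) were higher and Them4 lower (-1.66 ± 0.26). With trends removed only Them4 of these passed (-1.29), with Acot7 at 0.21 (edgeR adjusted p = 0.158) and Acot8 at 0.41 (edgeR adjusted p = 0.119).

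Regulators and known PPAR targets also parted. Of 15 regulators 5 were higher and 4 lower. Ppargc1a, a coactivator of oxidation genes, had 73.0, 37.6, 55.6 and 43.1 CPM in KO hearts 1 to 4, against 94.9, 125, 109.6, 150.4 and 165 CPM in WT hearts 1 to 5. The groups did not overlap, and Ppargc1a was at -0.62 with trends removed (edgeR adjusted p = 0.0067). Klf15, a cardiac regulator of lipid use, averaged 59.6 ± 9.74 CPM in KO hearts and 27.0 ± 6.97 CPM in WT hearts (1.13 ± 0.17), and the mitochondrial deacetylase Sirt3 was at 0.91 ± 0.14. With trends removed both still passed, at 0.75 and 0.58. Of 9 PPAR targets tested 2 were higher and 2 lower. The lipid droplet coat gene Plin5 averaged 102 ± 14.5 CPM in KO hearts and 39.3 ± 9.93 CPM in WT hearts (1.36 ± 0.17, edgeR adjusted p = 2.3e-05), and Plin2 was at 0.60 ± 0.11. Both were also called higher with trends removed, at 0.70 and 0.43. Ucp2 had 70.1, 106, 62.1 and 68.7 CPM in KO hearts, against 114, 354, 321, 173 and 168 CPM in WT hearts (-1.55 ± 0.29, edgeR adjusted p = 0.00045; -1.96 with trends removed). Every KO heart lay below every WT heart for Ucp2.

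The same 6-letter core of a nuclear receptor element stood in promoters of genes that moved in both directions. RefSeq promoters (GRCm38.p6, 250 bases before to 50 after the gene start) matched 24 of the 31 genes. The letters AGGTCA, searched on both strands, occurred in 7 of these 24 promoters (29.2%) and in 18.1% of 27025 promoters. The direct repeat DR1 (AGGTCA, any 1 base, AGGTCA) occurred in 0 of 24 and in 0.0481% of promoters, and TCAAGGTCA, which contains AGGTCA, in 0 of 24 and 0.466%. The 7 genes were Acadvl, Echs1 and Acacb, which rose, Cd36 and Ucp3, which fell, and Cpt1a and Acadm, which did not pass. A match is a description of the letters and not a binding site. The start used for Cd36 lies inside the annotated gene (chr5:17781690-17888801), so its window does not border the outermost start. The upstream windows of Acacb and Cpt1a also lie inside their annotated genes. The 250 bases before the start of Acadvl (chr11:70015429-70015678, minus strand), Cd36 (chr5:17835897-17836146, minus strand) and Ucp3 (chr7:100472741-100472990, plus strand) are printed 5′ to 3′ in the direction of the gene, with AGGTCA or its reverse complement in capitals, to show where it lies in 1 gene that rose and 2 that fell.
Acadvl: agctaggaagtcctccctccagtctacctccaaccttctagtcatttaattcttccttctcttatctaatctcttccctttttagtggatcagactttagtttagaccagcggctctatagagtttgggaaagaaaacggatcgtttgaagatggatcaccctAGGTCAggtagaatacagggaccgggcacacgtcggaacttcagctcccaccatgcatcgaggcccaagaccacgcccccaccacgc
Cd36: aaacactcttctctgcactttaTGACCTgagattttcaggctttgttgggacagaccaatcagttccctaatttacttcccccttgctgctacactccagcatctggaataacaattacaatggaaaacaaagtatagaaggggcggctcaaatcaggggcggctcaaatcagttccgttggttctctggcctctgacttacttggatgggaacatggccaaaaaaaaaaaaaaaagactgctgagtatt
Ucp3: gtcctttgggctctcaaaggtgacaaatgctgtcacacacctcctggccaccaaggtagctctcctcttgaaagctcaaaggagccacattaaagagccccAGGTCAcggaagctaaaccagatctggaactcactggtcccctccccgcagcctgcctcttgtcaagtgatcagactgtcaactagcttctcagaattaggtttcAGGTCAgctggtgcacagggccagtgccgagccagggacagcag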

How the data were processed

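Poly(A) RNA of 4 KO and 5 WT hearts was compared. The authors deposited read counts per gene and a second table of FPKM for the same hearts. The submitters' processing notes list Cufflinks 2.1, edgeR, DESeq, HTSeq, Bowtie2, TopHat and TopHat2 2.0.10 with the mm10 build. Annotation, strand setting and the treatment of reads shared between genes are not stated there.

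Counts were used as deposited and tested with edgeR 4.0.16 in R 4.3.3 (TMM factors, default filter by group with at least 10 reads and 15 in total, quasi-likelihood F test without a replicate term, Benjamini-Hochberg adjustment over all tested genes, threshold 0.05). CPM are counts scaled to the TMM-adjusted library, and ± beside a log2 fold change (KO over WT) is its standard error. For the second fit, lowess curves (span 0.3) of each heart's deviation against transcript GC content, then length, from GENCODE vM21 served as offsets; 99.22% of tested genes had values. FPKM were tested with limma 3.58.1 on log2(FPKM + 1), keeping a mean of 0.5 or more, a scale that understates changes of low genes. DESeq2 1.42.0 was an alternative. Slopes per heart were compared by exact permutation, and both p-values (GC content and length) were 0.00794 after adjustment. The procedures were tested on simulated data. All 31 genes are named, with up to 3 called genes of smallest p from each role of the wider list. Pdk4, Ppara, Angptl4, Acad10, Acadsb, Mcee, Slc25a20, Slc22a5, Myh6, Myh2, Myh4 and the other skeletal muscle markers were chosen after their values were seen. The members and lists were chosen with earlier results of these data known. The targeted gene and a gene that the naming rule took are not reported here, and directions rest on the genotype labels. Depth limits precision most in WT hearts 2 and 3.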

Additional observations from a re-analysis of the deposited data

Results flagged for a closer look

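In groups of 4 or 5 hearts, 1 heart lay apart from the rest by Dixon's criterion in 8 of 138 groups of values. The groups were the 31 genes and the genes of the wider list taken by smallest p, each in KO and in WT hearts. The GC slope, the mitochondrially encoded share and the summed level of the 31 genes were included in the same way. Chance alone sets apart about 1 in 20 such groups. KO heart 4 was low for Lpl, at 1776 CPM where the other KO hearts had 2575 to 2669, and for Acot13, at 61.99 CPM where the others had 141.5 to 153. WT heart 1, the deepest library, was high for Mlycd, at 60.57 CPM where the others had 34.95 to 42.14, and for Acsf3, at 15.47 CPM where the others had 8.92 to 10.75. WT heart 3 was low for Acadm, at 613.9 CPM where the others had 728.4 to 766.2. WT heart 5 was high for Etfdh, at 397.5 CPM beside 332.3 to 346.2, and for Them4, at 9.634 CPM beside 6.883 to 7.631. WT heart 4 was high for Gpihbp1, at 50.71 CPM beside 41.9 to 43.71. Of these genes, Lpl, Mlycd, Acsf3, Them4 and Gpihbp1 were called between the groups by edgeR, and each was called in every fit that left out 1 heart.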

How the results depend on the processing

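Of the 18 genes of the list called by edgeR, 13 were called in each fit that left out 1 heart. Over those fits 8 to 9 of the 31 genes were called higher and 5 to 9 lower, and the count of lower genes was 5 without KO heart 3 and 5 without KO heart 4. Same-numbered KO and WT hearts had correlations of -0.113, 0.041, -0.065 and -0.259. So few values cannot exclude that hearts were paired in some way. With the replicate number as a block 8 genes were higher and 8 lower, with 10 higher in the FPKM table. With GC content and length trends removed, some genes called in at least 1 of the fits changed sign. Of the list these were Slc27a1 (-0.295), Lpl (0.0598), Acadl (0.0145) and Crat (-0.322). Of the wider list, looked at here only for the genes named by smallest p, they were Echdc2 (-0.0885) and Prkaa1 (0.0981). Fabp3, Eci1, Eci2, Etfa and Etfdh, called in neither fit, changed sign as well. With the trends removed and the replicate block, the values were -0.295 for Slc27a1, 0.063 for Lpl, 0.0684 for Acadl, -0.005 for Echdc2 and 0.0696 for Prkaa1. In that fit 4 genes of the list were lower, 18 of the wider list were higher and 14 lower, and 1528 of all genes were higher and 1857 lower. Within the trend-removed fit, leaving out 1 heart gave 7 to 8 higher and 4 to 8 lower. In FPKM scaled to equal median ratios, an alternative chosen after seeing the data, 8 genes were higher and 8 lower. Of the genes called with or without this scaling, Lpl (-0.492), Crat (-0.0025) and Hadhb (-0.394) had the opposite sign from unscaled FPKM. Cpt2, Acadl, Hadha, Etfa, Etfdh and Acot13, called neither with nor without it, also turned from positive to negative. RLE factors, a mean of at least 1 CPM and omission of mitochondrially encoded genes called the same 18 genes, and DESeq2 called those and Eci1. Other settings kept fewer of the 18: 17 with upper quartile factors, 16 with no filter on low counts, and 15 without WT hearts 2 and 3 together. Lpl was among those lost without these 2 hearts (-0.42, edgeR adjusted p = 0.054). WT hearts 2 and 3, with 4415183 and 4655742 assigned reads, leave Cpt1b with 18 and 15 reads and Acot1 with 12 and 4.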

Other observations

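Several transcripts known to respond to fatty acids varied widely among WT hearts. Pdk4, the kinase that shuts off pyruvate dehydrogenase and a known target of PPAR signalling, had 175, 322, 93.7 and 227 CPM in KO hearts 1 to 4, against 599, 839, 884, 327 and 268 CPM in WT hearts 1 to 5 (log2 fold change -1.51 ± 0.36, edgeR adjusted p = 0.0031; -1.05 with trends removed, adjusted p = 0.0395). It was chosen after its values were seen. KO heart 2 lay above WT heart 5, so the groups overlapped. The highest KO heart was heart 2 for Pdk4, Ucp2, Ucp3 and Acot2 alike, and the highest WT heart was heart 2 or heart 3 for each. WT hearts 2 and 3 are also the shallowest and have the largest mitochondrially encoded shares, at 58.2 and 55.89% of reads, and the part of depth in these values was not tested. Without both hearts Ucp3 did not pass (-0.50, edgeR adjusted p = 0.123). Ppara itself, the receptor gene, averaged 105 ± 10.9 CPM in KO hearts and 97.6 ± 11.7 CPM in WT hearts (SD, n = 4 and 5; 0.11 ± 0.13, edgeR adjusted p = 0.495), and Angptl4, another of its targets, averaged 7.46 ± 3.55 CPM in KO hearts and 7.38 ± 3.13 CPM in WT hearts. Both were also named after their values were seen.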
